A study of Mus musculus with 19 samples.

Results

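The genes described here are the cytoplasmic ribosomal protein genes of mouse, whose products make up the protein part of the cytoplasmic ribosome. They were taken by name from the GENCODE M21 annotation as protein-coding genes with a symbol that starts with Rpl or Rps followed by a digit, an a or a p, leaving out pseudogenes and the ribosomal S6 kinases. The rule found 86 genes of the 54119 with a transcript in the deposited values, or of the 21806 among these that code for protein. Of the 86, 52 carry a large-subunit name (Rpl) and 34 a small-subunit name (Rps). Of these names, 9 stand for a paralogue, a retrogene or a related gene rather than a standard subunit: Rpl10l, Rpl22l1, Rpl36al, Rpl39l, Rpl3l, Rpl7l1, Rps27l, Rps27rt and Rps19bp1, the last of which names a binding partner of Rps19. The other 77 are the standard members. Rps27a, which encodes a ribosomal protein fused to ubiquitin, falls under the name rule.

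RNA of 19 mouse cell libraries in 6 groups was sequenced. The XX embryonic stem cells (mESC, 3 libraries) were of the LF2 line, the XY mESC (3 libraries) of the E14 line, and the XX Tet3-/- mESC (4 libraries, numbered 1 to 4) were a Tet3 mutant of LF2; epiblast-like cells (EpiLC) were made from each, with 3 libraries for XX, 3 for XY and 3 for Tet3-/- (numbers 1, 3 and 4). All mESC were grown with LIF in serum-free medium with inhibitors of GSK3 and of MEK1/2, and all EpiLC were kept for 5 days without LIF, in FGF5 plus Activin A. Each sex was represented by 1 line, so sex and line cannot be told apart, and the labels give neither the deleted part of Tet3 nor whether the mutant numbers are separate clones, nor do they say that libraries of a group are separate cultures, so that p-values measure the spread between these libraries, which may be technical.

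Ribosomal proteins are made in roughly equal numbers per ribosome, and most of their mRNAs begin with a terminal oligopyrimidine tract through which mTOR signalling controls their translation. In most tissues a single gene supplies each protein. A few have a second gene, often a copy without introns, that is expressed in a restricted set of cells: Rpl10l and Rpl39l are best known from male germ cells, where the X chromosome that carries Rpl10 and Rpl39 is silenced during meiosis. Pluripotent cells hold high levels of ribosomal protein mRNA.

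The coding sequences of Rpl39 and Rpl39l are shown because the results below turn on this pair, and because they show how far reads of a gene and its paralogue can be told apart. They are printed from the annotated transcripts (GENCODE M21, GRCm38.p6), 5′ to 3′ on the coding strand, with the bases that differ between them in capitals.

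Rpl39: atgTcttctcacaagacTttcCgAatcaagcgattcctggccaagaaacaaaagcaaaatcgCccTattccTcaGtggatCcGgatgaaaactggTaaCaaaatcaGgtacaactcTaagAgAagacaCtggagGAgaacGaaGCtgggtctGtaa

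Rpl39l: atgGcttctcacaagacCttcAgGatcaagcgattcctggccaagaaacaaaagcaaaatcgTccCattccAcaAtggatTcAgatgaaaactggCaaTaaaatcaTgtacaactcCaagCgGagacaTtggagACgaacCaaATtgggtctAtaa

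Of 156 coding bases, 23 differ between Rpl39 and Rpl39l, an identity of 85.3%. Over 645 coding bases Rpl10 and Rpl10l differ at 98, an identity of 84.8%. Rpl10l lies on chromosome 12 (GRCm38, 66283379 to 66284401, minus strand) and Rpl39l on chromosome 16 (10170226 to 10174911, plus strand), and their partners lie on the X chromosome (Rpl10 at 74270812 to 74273135, plus strand; Rpl39 at 37082520 to 37085402, minus strand). A second pair shows the opposite case: the coding sequences of Rps27 (255 bases) and of the retrogene Rps27rt are 100% identical, so that the split of reads between them is uncertain. Their transcripts were 100% identical over 341 bases. The bases before their annotated starts differ. Those from the annotated first base on are the same sequence, offset by a leading C in Rps27. Both stretches are shown with capitals from the annotated first base on (GRCm38.p6, both minus strand, Rps27 at chr3:90213634-90213663 and Rps27rt at chr9:114982725-114982754).

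Rps27: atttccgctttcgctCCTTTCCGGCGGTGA

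Rps27rt: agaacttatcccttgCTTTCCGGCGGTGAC

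The deposited values are transcript abundances (TPM, which sum to the same total in every library and are divided by transcript length), estimated per transcript, summed here per gene. Comparisons were made with limma on log2(TPM + 1) over the 14972 genes that reached 1 TPM in 3 or more libraries, with Benjamini-Hochberg adjustment and an adjusted p under 0.05 as the call. All fold changes are on that log2 scale, and each was repeated on values scaled by the median of ratios. The scaling matters here because the libraries were total RNA, and Rn7s1, a copy of the abundant 7SL RNA, took from 23.5% to 43.7% of all TPM. The fold change of the median tested gene between EpiLC and mESC was 0.14 (XX), 0.54 (XY) and -0.13 (Tet3-/-) on TPM and -0.05, -0.04 and -0.03 on scaled values, so a shift common to many genes depends on the scale. Changes of the ribosomal protein genes are given on both.

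The libraries of the mutant were labelled Tet3-/-, and Tet3 itself was low in all mESC and EpiLC of the LF2 line: 0.532 to 0.916 TPM in Tet3-/- mESC against 0.536 to 1.06 in XX mESC (limma fold change -0.08, adjusted p = 0.885), and 0.693 to 1.42 against 1.21 to 1.90 in EpiLC (-0.39, adjusted p = 0.525). Since the deleted part is not given, this checks nothing. The summed TPM of 9 naive markers was 391 to 782 in mESC and 28.3 to 91.8 in EpiLC. That of 6 EpiLC markers was 11.6 to 30.0 in all mESC but 40.1 to 47.6 in XX EpiLC, 263 to 336 in XY EpiLC and 45.6, 154 and 44.0 in Tet3-/- EpiLC 1, 3 and 4, with Lef1 below 1 TPM in all XX EpiLC. Otx2, one of the 6, went the other way in the LF2 line. Its mean was 18.9 TPM in XX mESC and 11.0 in XX EpiLC, and 20.6 and 17.0 in Tet3-/- cells. In XY cells it was 1.74 and 62.6. The other markers of this list had higher means in EpiLC in each genotype. Tet3-/- EpiLC 3 stood apart: its 4 mesoderm markers summed to 108 TPM against 1.05 and 1.19 in the other 2, and its 5 endoderm markers to 12.2 against 0.746 and 0.783. The 4 trophoblast markers summed to 44.4 to 373 TPM in EpiLC, against 8.48 to 27.7 in mESC, and most of this was Krt8. Its group means were 153, 41.6 and 197 TPM in XX, XY and Tet3-/- EpiLC and 8.46 to 15.5 in mESC. Eomes also had higher means in EpiLC. Cdx2 and Elf5 had means below 1 TPM in all EpiLC groups. Cdx2 was lower in EpiLC in XX (0.0377 against 0.239) and XY cells (0.0357 against 4.21), but not in Tet3-/- cells. XX mESC 2 also differed from its group: the members held 10.7% of its TPM, against 6.59% and 8.10% in XX mESC 1 and 3, and counts that change without it are given below. Counts without 1 library are given without the matching share of all genes. They show only how the calls depend on single libraries. In these bulk RNA samples, fewer cells of one kind and less RNA per cell cannot be told apart, and the part of these differences in the results below was not tested.

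The ribosomal protein genes were among the most abundant mRNAs in every group. The 86 genes as a sum held 8.48% ± 2.10 (SD, n = 3) of TPM in XX mESC, 9.92% ± 0.87 (n = 3) in XY mESC, 9.03% ± 0.79 (n = 4) in Tet3-/- mESC, 7.88% ± 0.26 (n = 3) in XX EpiLC, 10.0% ± 0.27 (n = 3) in XY EpiLC and 7.33% ± 0.24 (n = 3) in Tet3-/- EpiLC. Rn7s1 is part of this denominator; among nuclear protein-coding genes alone the share was 28.7% ± 2.55, 27.9% ± 3.84, 26.9% ± 1.34, 26.5% ± 0.0747, 22.0% ± 0.402 and 23.8% ± 3.52 in the same order. In XX EpiLC it was 26.4% to 26.6%, and in XY EpiLC 21.6% to 22.4%, so these groups did not overlap. On all TPM they did not overlap either, but in the opposite order: 7.67% to 8.17% in XX EpiLC and 9.79% to 10.3% in XY EpiLC. Which group was higher thus depended on the denominator. Over all 19 libraries the share among nuclear protein-coding genes ranged from 19.8% to 32.3%. Of this range the lowest value was that of Tet3-/- EpiLC 3; without it the Tet3-/- EpiLC mean was 25.7%.

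**Figure D1:**
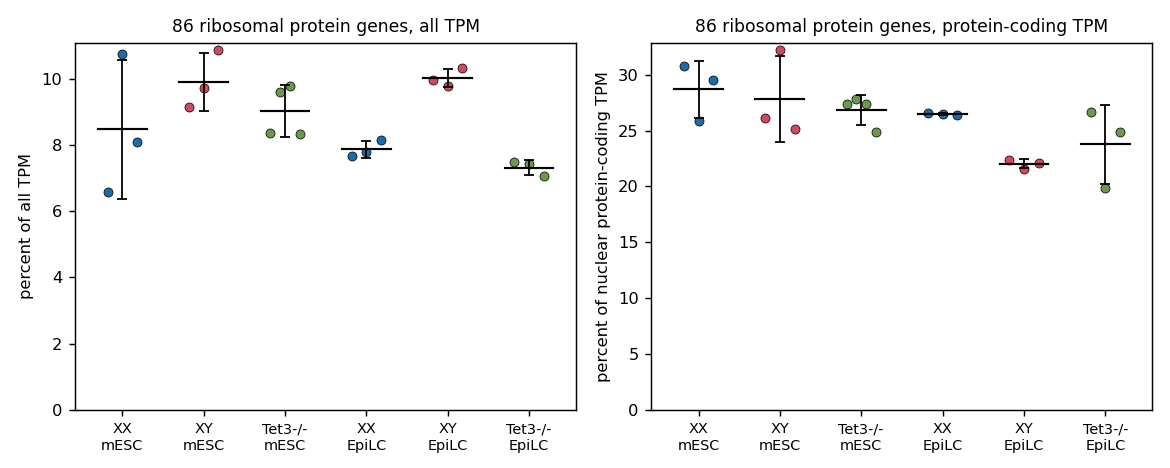
Summed share of the 86 ribosomal protein genes per library, as percent of all TPM (left) and of the TPM of nuclear protein-coding genes (right), by group; points are libraries, horizontal lines group means and error bars 1 SD. On the right, the XY EpiLC libraries lie between 21.6% and 22.4% and those of XX EpiLC between 26.4% and 26.6%. On the left the order is the opposite, with XY EpiLC between 9.79% and 10.3% and XX EpiLC between 7.67% and 8.17%.

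Within this total the genes were unequal. Of the 77 standard members, 72 had a mean of at least 100 TPM over all libraries, and the median of the 77 was 1017 TPM. The 5 highest were Rps29 (3423 TPM), Rps27rt (2783), Rps28 (2775), Rpl41 (2395) and Rps18 (2211); all but Rpl41 are small-subunit names. The 5 lowest were Rpl10l (33.8 TPM), Rpl39l (26.2), Rps13 (24.7), Rps19bp1 (13.7) and Rpl3l (0.111). TPM is already divided by transcript length, but levels of different genes can be compared only with care. Reads can be split between near-identical sequences, and gene sums hold transcripts that are not protein-coding, as given below. The main transcripts of Rps29, Rps27rt and Rps28 are short, with 390, 374 and 382 bases. The part of length and of transcript type in this order was not tested. The standard members below 100 TPM were Rps13 (24.7), Rps27 (42.2), Rpl29 (42.8), Rpl12 (70.3) and Rpl5 (74.9). For all of them but Rps27, most of the TPM of gene and copies lay in the copies, as given below. Rps27 shares its coding sequence with Rps27rt, so the separate levels of both, and the high rank of Rps27rt, are uncertain. Rpl3l, the striated-muscle counterpart of Rpl3, was at 0 in XX EpiLC 1 and 3 and reached at most 0.293 TPM (XY mESC 3). It did not pass the filter, so 85 of the 86 genes were tested.

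The order of the genes was nearly fixed across cells. Spearman's rho between libraries over the 86 genes lay between 0.891 and 0.997, with a median of 0.964 over 171 library pairs, a description in which all pairs share the same genes. The coefficient of variation over all 19 libraries on scaled values had a median of 23.5% for the 85 tested genes against 37.2% over all tested genes, and 79 of the 85 lay below the latter. Mean levels of the members run from 0.111 to 3423 TPM, so rho can be high through differences between genes alone. It is also blind to a shift of the whole set. The background of the coefficient of variation holds all genes that passed the filter and was not matched for level. Neither value shows that the members varied little for their level.

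Rpl10l and Rpl39l had by far the largest changes of the tested members; the next largest on TPM was that of Rps29, -1.04 in Tet3-/- cells. Rpl10l encodes a paralogue of Rpl10, a protein that joins the large subunit late in its assembly. Its TPM was 37.5, 40.2 and 50.5 in XX mESC 1 to 3 and 1.47, 1.38 and 1.56 in XX EpiLC. In XY cells it was 69.0, 55.6 and 85.6 in mESC and 1.43, 0.995 and 0.997 in EpiLC. In Tet3-/- cells it was 70.6, 56.1, 81.9 and 76.4 in mESC 1 to 4 and 2.06, 6.57 and 2.65 in EpiLC 1, 3 and 4. All 10 mESC libraries lay above all 9 EpiLC libraries, and the highest EpiLC value was that of Tet3-/- EpiLC 3. From mESC to EpiLC Rpl10l fell in XX (-4.14, SE 0.28, limma adjusted p = 2.16e-09), in XY (-5.04, SE 0.28, adjusted p = 9.92e-11) and in Tet3-/- cells (-4.03, SE 0.26, adjusted p = 8.39e-10). On scaled values the changes were -4.42, -5.40 and -3.95, and no library left out in turn ended a call on either scale.

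Rpl39l, the paralogue of the small protein of the peptide exit tunnel, followed the same pattern. It had 23.2, 40.7 and 27.0 TPM in XX mESC and 1.46, 1.21 and 1.03 in XX EpiLC. In XY cells these were 67.6, 43.7 and 78.6, and 0.569, 0.520 and 0.300. In Tet3-/- cells they were 58.7, 42.9, 53.7 and 50.9 in mESC, and 1.66, 2.14 and 2.86 in EpiLC. The groups of mESC and EpiLC were again fully apart, and the XY libraries held both the highest and the lowest values. Rpl39l fell in XX (-3.78, SE 0.24, limma adjusted p = 1.5e-09), in XY (-5.42, SE 0.24, adjusted p = 1.16e-11) and in Tet3-/- cells (-4.04, SE 0.23, adjusted p = 1.74e-10), with no call lost when any library was left out. On scaled values the changes were -4.06, -5.64 and -3.93.

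The X-linked partners moved less. Rpl10 had 200.3 to 428 TPM in the mESC libraries and 243 to 309 in the EpiLC libraries, and was called in no transition on TPM. Rpl39 had 908 to 1957 and 864 to 1212 TPM; it fell in XX (-0.60, limma adjusted p = 0.00627; -0.86 on scaled values, adjusted p = 0.0259), in Tet3-/- cells on TPM (-0.77, adjusted p = 0.000353; -0.63 scaled, adjusted p = 0.0728) and in XY cells on scaled values (-0.87, adjusted p = 0.0246; -0.14 on TPM, adjusted p = 0.471). The TPM calls of Rpl39 held whichever library was left out, but its scaled calls held in 3 of 6 such fits in XX (lost without XX mESC 1, XX EpiLC 2 or XX EpiLC 3) and in 3 of 6 in XY cells (lost without XY mESC 2, XY EpiLC 2 or XY EpiLC 3).

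As a share of the pair, Rpl10l made up a mean of 17.7% (8.81% to 26.2%, n = 10) of the summed TPM of Rpl10 and Rpl10l in mESC and 0.737% (0.322% to 2.08%, n = 9) in EpiLC. The group means in mESC were 11.3% ± 2.18 (SD, n = 3) in XX, 24.4% ± 2.56 (n = 3) in XY and 17.5% ± 3.36 (n = 4) in Tet3-/- cells. With near-identical copies of Rpl10 added the shares were 3.41% in mESC and 0.120% in EpiLC, since most of the TPM of Rpl10 and its copies lay in Rpl10-ps3, a copy that GENCODE M21 lists as protein-coding. Rpl39l made up 3.40% (1.42% to 7.14%, n = 10) of its pair in mESC and 0.123% (0.0317% to 0.253%, n = 9) in EpiLC, and Rpl39 has few copies (0.674% of its summed TPM). In mESC the group means of Rpl39l were 1.72% ± 0.309 in XX, 5.92% ± 1.93 in XY and 2.77% ± 0.347 in Tet3-/- cells. The 3 XY mESC libraries lay above all other libraries in the share of both paralogues.

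The shares of the other paralogues were closer between mESC and EpiLC. Rpl22l1 had a mean of 27.7% of its pair with Rpl22 in mESC and 23.1% in EpiLC, Rpl36al 26.1% and 28.0% with Rpl36a, Rps27l 13.4% and 16.5% with Rps27rt, and Rpl7l1 4.38% and 3.22% with Rpl7. Rpl22l1 differed instead between the lines, as given below. Rps27l is known as a target of p53 and was at 301 to 587 TPM in all libraries. In the transitions none of Rpl22l1, Rpl36al, Rps27l, Rpl7l1 and Rps19bp1 was called on TPM. On scaled values Rpl22l1 fell in XY cells (-0.96, limma adjusted p = 0.0122), as did Rpl36al (-0.79, adjusted p = 0.0169), while Rpl7l1 fell in XX cells (-0.77, adjusted p = 0.0165).

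**Figure D2:**
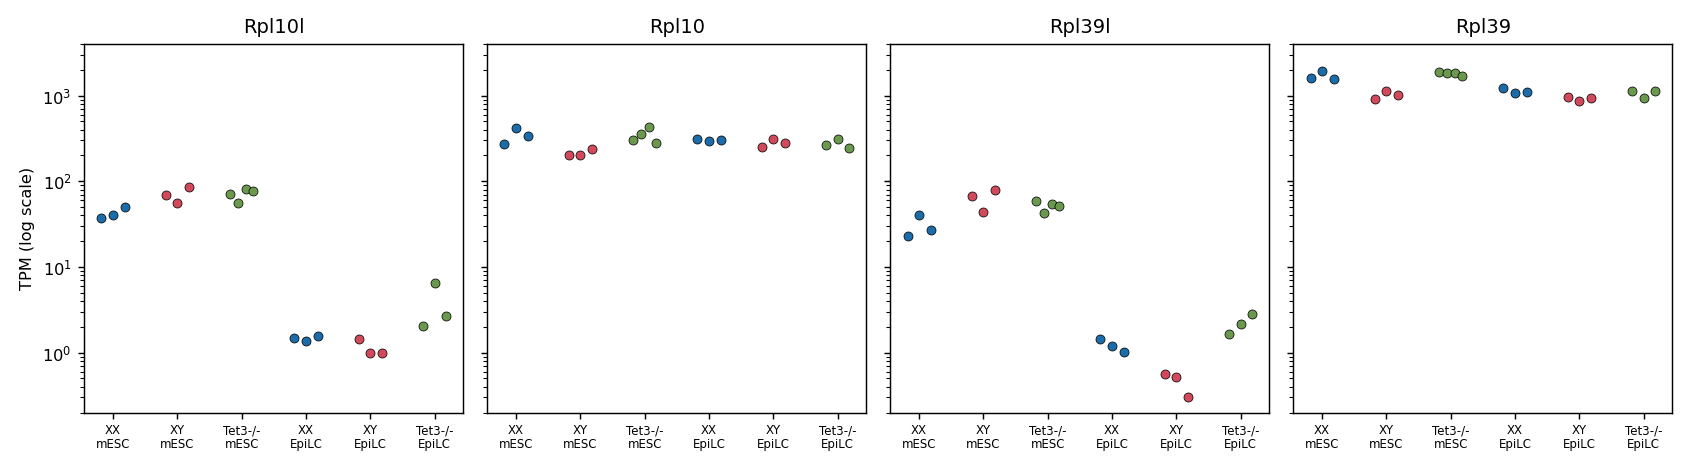
TPM per library, on a log axis, of Rpl10l, Rpl10, Rpl39l and Rpl39 in the 6 groups; each point is a library. Rpl10l and Rpl39l lie at 23.2 TPM or above in every mESC library and at 6.57 TPM or below in every EpiLC library, while the lowest values of Rpl10 and Rpl39 are 200.3 and 864 TPM.

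Of the remaining members, Rps29 was the one lower in EpiLC in all 3 transitions on both scales. Rps29 encodes a small zinc-binding protein of the small-subunit head. Its TPM was 2917, 4692 and 3569 in XX mESC and 2182, 2349 and 2307 in XX EpiLC. In XY cells it was 4088, 5124 and 5134 and then 2724, 2806 and 3017. In Tet3-/- cells it was 4298, 4260, 5071 and 4086 and then 2138, 2108 and 2171. Within each genotype every EpiLC library lay below every mESC library. The change was -0.68 in XX (SE 0.17, limma adjusted p = 0.0036), -0.74 in XY (adjusted p = 0.00117) and -1.04 in Tet3-/- cells (SE 0.15, adjusted p = 2.66e-05). On scaled values it was -0.94, -1.47 and -0.90.

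Few other members passed the test on TPM, and the count depended on the scale. In XX cells 6 of 85 members (7.06%) were lower in EpiLC, against 12.2% of all tested genes, and 0 were higher, against 19.2%. Without XX mESC 2, 13 were higher, a count that cannot be set beside the shares of the main fit. By limma 8 members were lower and 0 higher at an unadjusted p under 0.05. Besides Rpl10l, Rpl39l and Rps29, the members that fell were Rpl12 (-0.66, adjusted p = 0.0182), Rpl39 (-0.60, adjusted p = 0.00627) and Rps20 (-0.57, adjusted p = 0.00829). The call of Rpl12 was lost without XX mESC 3, XX EpiLC 1 or XX EpiLC 2. On scaled values 11 members fell (5 without XX mESC 1), against 27% of all genes, and 0 rose, against 23% (0 at an unadjusted p under 0.05). The member median was -0.03 on TPM, below the 0.14 of all genes, and -0.29 against -0.05 on scaled values.

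In XY cells 4 members rose on TPM, against 41.1% of all tested genes, and 6 fell, against 9.36%. The 4 that rose are large-subunit genes, named after their values were seen: Rpl5 (0.69), Rpl29 (0.65), Rpl4 (0.57) and Rpl9 (0.47), and all 4 were below 0 on scaled values. Rpl5 belongs to the 5S particle that binds Mdm2, and its TPM was 72.1, 64.1 and 99.8 in XY mESC and 107, 131 and 140 in XY EpiLC. Near-identical copies held 92.9% of the summed TPM of gene and copies for Rpl5 and 88.1% for Rpl29. The rises of both genes rest on this split. The 6 that fell were Rpl10l, Rpl39l, Rps29, Rps20 (-0.43, adjusted p = 0.026), Rplp1 of the stalk (-0.41, adjusted p = 0.0378) and Rpl13a (-0.38, adjusted p = 0.0469). The call of Rpl13a was lost in each of the 6 fits that left out 1 library, and those of Rps20 and Rplp1 held in 2 and 1 of the 6. On scaled values 46 members (54.1%) fell, against 26.4% of all genes, and 0 rose, against 24.5% (0 at an unadjusted p under 0.05). Their median was -0.63 against -0.04 for all genes, while on TPM it was 0.10 against 0.54. On both scales the median member lay below the median gene. Without XY mESC 2 the count that fell on scaled values was 18, and without XY mESC 3 it was 62. On TPM the number that rose was 0 to 5 over the fits that left out 1 library, with 0 without XY EpiLC 3, XY mESC 1 or XY mESC 2. The shares of all genes above are those of the main fit and not of these fits.

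In Tet3-/- cells 14 members (16.5%) fell on TPM, against 21.5% of all tested genes, and 0 rose, against 13.6% (0 at an unadjusted p under 0.05). Of the 14, 9 carry small-subunit names (Rps29, Rps20, Rps21, Rps23, Rps12, Rps24, Rps15, Rps28 and Rps18), and 5 large-subunit names (Rpl39l, Rpl10l, Rpl39, Rpl13a and Rpl36a). On scaled values 3 fell (Rpl10l, Rpl39l and Rps29), against 27.9%, and 0 rose, against 23.7%. The Tet3-/- median was -0.26 on TPM and -0.12 on scaled values, against -0.13 and -0.03 for all genes. The members called lower in all 3 transitions were Rpl10l, Rpl39l, Rps20 and Rps29 on TPM, and the same without Rps20 on scaled values. On protein-coding transcripts alone, which held little of its TPM, Rps20 was not called in XX (limma adjusted p = 0.111) or XY cells (adjusted p = 0.641). The 3 transitions use separate libraries.

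**Figure D3:**
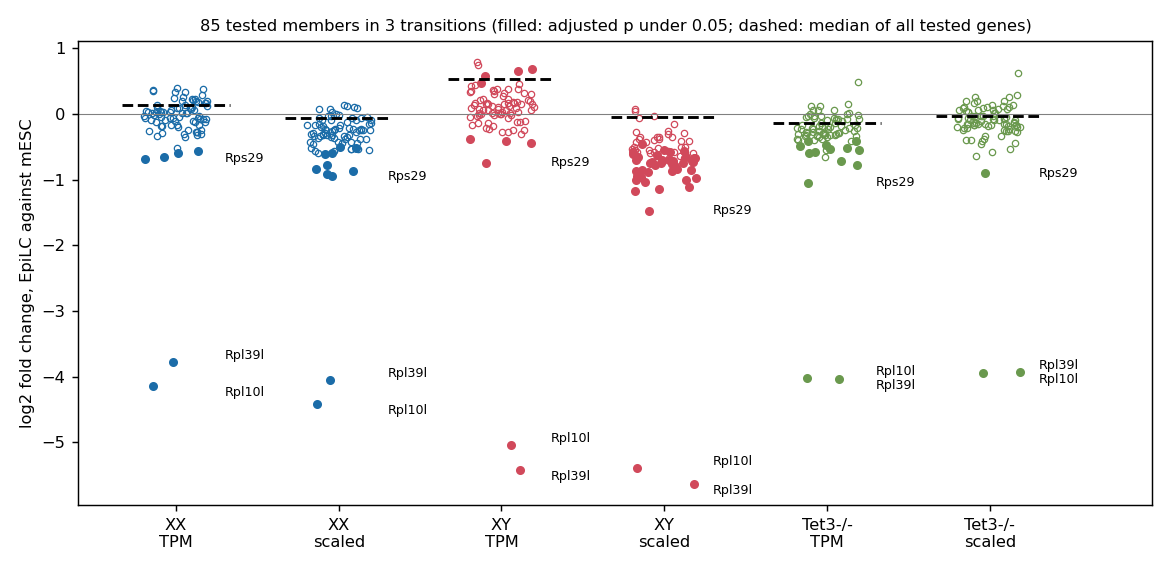
Log2 fold change from mESC to EpiLC of each of the 85 tested ribosomal protein genes in XX, XY and Tet3-/- cells, on TPM and on scaled values; filled points passed the test (limma adjusted p under 0.05), open points did not, and the dashed line is the median of all tested genes. Rpl10l and Rpl39l lie at -3.78 or below in every column.

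The summed TPM of small-subunit names relative to large-subunit names also differed between the cell states. The summed TPM of the Rps members divided by that of the Rpl members was 0.952 to 1.06 in the 10 mESC libraries and 0.841 to 0.917 in the 9 EpiLC libraries, with no overlap. The group means were 0.975 ± 0.0231 (SD, n = 3), 1.01 ± 0.0383 (n = 3) and 1.01 ± 0.0197 (n = 4) in XX, XY and Tet3-/- mESC, and 0.908 ± 0.00892 (n = 3), 0.899 ± 0.00888 (n = 3) and 0.874 ± 0.0299 (n = 3) in the EpiLC. A ratio within a library does not depend on the scaling. Without Rps29 it was 0.867 to 0.948 in mESC and 0.789 to 0.860 in EpiLC, and without both Rps29 and Rps27rt 0.810 to 0.870 and 0.740 to 0.800, again with no overlap. The ratio of TPM sums is weighted towards the most abundant genes, and it shows unequal change, not which subunit's genes changed. The median fold changes of large- and small-subunit names on TPM were close: -0.007 and -0.05 in XX, 0.12 and 0.07 in XY, -0.23 and -0.30 in Tet3-/- cells. Fold change on TPM also rose with transcript length (rho 0.16, 0.23 and 0.13 over 12484 genes, 0.03, 0.21 and 0.10 over the members). The main transcript of Rps29 has 390 bases. The part of length in the ratio was not tested.

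**Figure D4:**
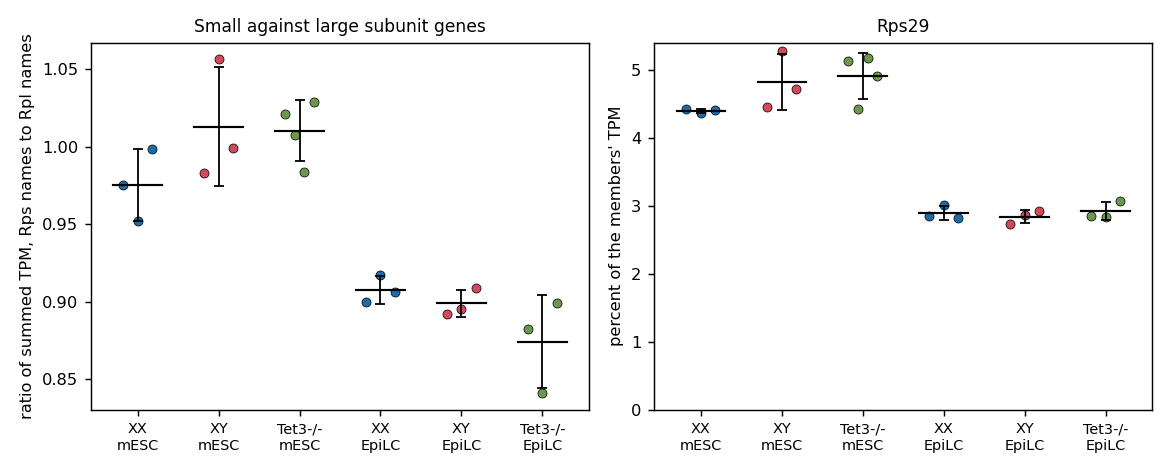
Left, ratio of the summed TPM of the Rps members to that of the Rpl members; right, Rps29 as percent of the members' summed TPM. Points are libraries, horizontal lines group means and error bars 1 SD, and the left axis does not start at 0; all mESC libraries lie at 0.952 or above on the left and at 4.37% or above on the right, and all EpiLC libraries at 0.917 and 3.08% or below.

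Taken as shares of the members' own summed TPM, 8 members were lower in every EpiLC library than in any mESC library and 4 were higher. The 8 were Rpl10l, Rpl39l, Rpl13a, Rps12, Rps20, Rps21, Rps24 and Rps29, and the 4 were Rpl4, Rpl9, Rpl11 and Rps25. Rps29 held 4.37% to 5.27% of the members' TPM in mESC libraries and 2.73% to 3.08% in EpiLC libraries, and Rps12 held 2.38% to 2.85% and 2.10% to 2.37%. In the other direction, Rpl9 held 1.33% to 1.58% in mESC and 1.66% to 1.89% in EpiLC, and Rps25 held 1.12% to 1.43% and 1.47% to 1.65%. These 12 were picked out by their values, and no test was made on the shares. No such count was made for genes outside the set, so whether 12 is many or few cannot be said.

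Between XX and XY mESC, Rpl39 and Rpl10, both X-linked, were the members higher in XX on TPM and on scaled values. The X-linked members are Rpl10, Rpl39, Rps4x and Rpl36a, and in naive female mESC both X chromosomes are active. Rpl39 had 1608, 1957 and 1570 TPM in XX mESC and 908, 1138 and 1022 in XY mESC, with no overlap (fold change 0.74, limma adjusted p = 0.00318; 1.03 on scaled values, adjusted p = 0.0163). Its TPM call held in all 6 fits that left out 1 library, and its scaled call was lost without XX mESC 1, XY mESC 1 or XY mESC 3. Rpl10 had 274, 416 and 340 TPM against 200, 203 and 241, also with no overlap (0.66, SE 0.21, adjusted p = 0.0382; 0.94 scaled, adjusted p = 0.00226). The call of Rpl10 on TPM was kept in 2 of the 6 fits that left out 1 library, and in 6 of 6 on scaled values. Rps4x had 1401, 2684 and 1920 against 1260, 1401 and 1589 TPM, which overlap (0.45, adjusted p = 0.14; 0.74 scaled, adjusted p = 0.0187). Rpl36a went the other way on TPM, 795, 1163 and 894 against 1232, 1453 and 1452 (-0.55, adjusted p = 0.0276), and was not called on scaled values (-0.26, adjusted p = 0.455).

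The median of the 4 X-linked members was 0.56 on TPM and 0.84 on scaled values, and that of the 81 tested autosomal members was -0.32 and -0.04. All 604 tested X-linked genes had medians of 0.32 and 0.55, and 51.2% of them were higher in XX mESC on scaled values. In EpiLC the median of the X-linked members was 0.05 on TPM; Rpl36a was lower in XX EpiLC (-0.74, limma adjusted p = 0.00193; 0.02 on scaled values), and Rpl10 (0.11), Rpl39 (0.28) and Rps4x (-0.01) were not called. On scaled values Rpl39 (1.04, adjusted p = 0.0148), Rpl10 (0.86, adjusted p = 0.00392) and Rps4x (0.75, adjusted p = 0.0165) were higher in XX EpiLC; the calls of Rpl39 and Rps4x were lost without XX EpiLC 1, XY EpiLC 2 or XY EpiLC 3.

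Of the 85 tested members, 2 were higher in XX than in XY mESC on TPM (6.43% of all genes) and 5 lower (7.73%), and on scaled values 5 higher (18.2%) and 2 lower (12.6%). Without XX mESC 2, 43 were lower on TPM, and without XY mESC 3, 1 was higher on scaled values. The shares of all genes above belong to the main fit and cannot be set beside these counts. Rpl22l1 was the member furthest down: 193, 373 and 199 TPM in XX mESC against 516, 516 and 560 in XY mESC, with no overlap (-1.12, SE 0.23, limma adjusted p = 0.00211; -0.84 scaled, adjusted p = 0.0401, a scaled call that held in 2 of 6 fits without 1 library). In EpiLC it was 250, 217 and 234 against 482, 429 and 446 (-0.95, adjusted p = 0.00339), but on scaled values -0.20 (adjusted p = 0.661). Rpl39l was also lower in XX mESC (-1.04, SE 0.24, adjusted p = 0.00714; -0.76 scaled, adjusted p = 0.0104), by the values given above. In EpiLC it was higher in XX (0.61, adjusted p = 0.0489; 0.83 scaled, adjusted p = 0.00554), though the TPM call was lost in each of the 6 fits without 1 library.

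In EpiLC the comparison of XX with XY turned on the scale. On TPM 1 member was higher, against 5.23% of all genes, and 21 (24.7%) lower, against 42%; on scaled values 9 were higher, against 17.9%, and 0 lower by limma, against 15.1% (2 at an unadjusted p under 0.05). Leaving out 1 library gave 4 to 14 lower on TPM and 4 to 9 higher on scaled values, without the share of all genes in those fits. The member median was -0.38 on TPM and 0.37 scaled, against -0.59 and 0.01 for all genes. Of the 9, Rpl13 (1.03, adjusted p = 0.0015) and Rplp0 of the stalk (0.84, adjusted p = 0.00431) had the highest values among the autosomal genes. Rpl13 was at 1155, 1167 and 1241 TPM in XX EpiLC against 948, 1010 and 995 in XY EpiLC, which do not overlap, and at 1111, 1547 and 1357 against 894, 954 and 1056 in mESC (0.74 scaled, adjusted p = 0.0145). Rpl13 and Rplp0 were singled out after their values were seen. XX and XY EpiLC also differed in EpiLC markers (40.1 to 47.6 against 263 to 336 summed TPM), and the part of this in these results was not tested.

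**Figure D5:**
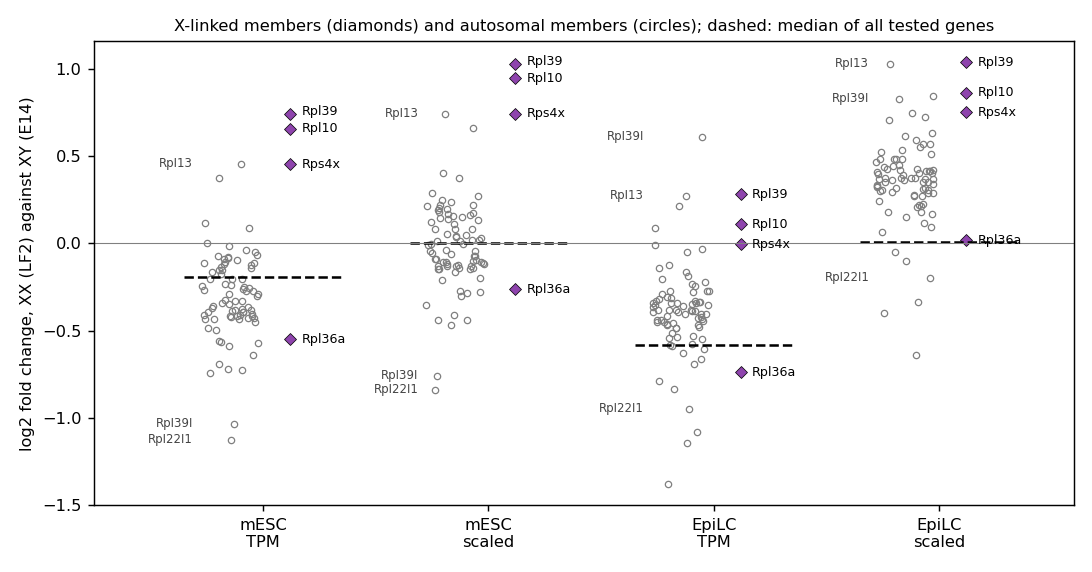
Log2 fold change of each tested ribosomal protein gene in XX (LF2) against XY (E14) cells, in mESC and in EpiLC, on TPM and on scaled values; diamonds are the 4 X-linked members, circles the 81 autosomal ones, and the dashed line is the median of all tested genes. In mESC Rpl39 is at 0.74 on TPM and at 1.03 on scaled values.

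Tet3 encodes an enzyme that oxidises methylated cytosine, and few members differed between Tet3-/- and XX cells. Between Tet3-/- and XX mESC, 0 of 85 members were called higher (0.494% of all genes) or lower (0.107%) by limma, with 3 higher and 1 lower at an unadjusted p under 0.05. Without XX mESC 2, 6 were higher, a count that cannot be set beside the shares of the main fit. In EpiLC 0 members were called higher (0.12% of all genes) and 0 lower (0.955%), with 2 higher and 0 lower at an unadjusted p under 0.05. On scaled values 1 member was lower in mESC, Rpl12 (-0.69, adjusted p = 0.0403), against 1.69% of all genes, and 0 higher against 1.58%. In EpiLC 1 was higher, Rpl10l (0.91, adjusted p = 0.00984), against 2.2%, and 0 lower against 3.23%. Rpl10l was at 2.06, 6.57 and 2.65 TPM in Tet3-/- EpiLC against 1.47, 1.38 and 1.56 in XX EpiLC, so no values overlapped, and the call held in 5 of 6 fits without 1 library. On TPM the difference was 0.83 (adjusted p = 0.215). The call of Rpl12 held in 1 of 7 such fits. The difference between the Tet3-/- and the XX transition was called for 0 members on TPM and on scaled values (0.174% and 0.394% of all genes lower, 0% and 0.234% higher), with 1 member at an unadjusted p under 0.05 on each.

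The XX and XY transitions differed for Rpl39l. Its fall was smaller in XX by 1.65 on TPM (SE 0.35, limma adjusted p = 0.00293) and by 1.59 on scaled values (SE 0.29, adjusted p = 0.000906), and the call held in all 12 fits that left out 1 library on each scale. For Rpl10l the difference was 0.90 on TPM (adjusted p = 0.132) and 0.98 on scaled values (SE 0.27, adjusted p = 0.0143). Rpl12 differed on TPM the other way (-1.004, SE 0.29, adjusted p = 0.0222) and was not called on scaled values (-0.54, adjusted p = 0.158); the TPM call held in 5 of 12 fits without 1 library. In all, 1 member was higher and 1 lower on TPM, against 3.61% and 12.4% of all genes, and 2 were higher and 0 lower on scaled values, against 11% and 12.4%. The XX libraries enter this comparison and those of the Tet3-/- cells, so the comparisons are not independent.

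The counts above need care for members whose sequence is repeated in the genome. By sequence, 640 genes (630 of them pseudogenes) were near-identical copies of 81 members, at 95% identity or more over at least 50% of the copy, and held 11.2% to 15.4% of the summed TPM of members and copies. The copies took more than 50% of the TPM for 11 members: 97.6% for Rps13 (Rps13-ps1), 95.9% for Rpl12 (Gm10275), 92.9% for Rpl5 (Gm15500), 88.1% for Rpl29 (Gm8210), 83.8% for Rpl10 (Rpl10-ps3), 76.9% for Rpl34, 74.4% for Rpl3, 69.8% for Rps3a1, 65.2% for Rpl35, 52.1% for Rpl30 and 51.0% for Rps7. The levels of these 11 members rest on this split. Copies that are themselves members were not counted here, so the uncertain split between Rps27 and Rps27rt comes on top of it. With the copies added, the fall of Rpl12 in XX cells was -0.43 (limma adjusted p = 0.027), and the difference between its XX and XY transitions -0.46 (adjusted p = 0.129). For Rps29 and Rpl39 the copies held 0.0111% and 0.674%, so those results do not rest on them.

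Annotated transcript types also differed between members. Protein-coding transcripts held 92.0% of the members' TPM, retained-intron transcripts 4.78% and transcripts subject to nonsense-mediated decay 2.66%. In Rps20 90.7% of TPM lay in transcripts that are not protein-coding, in Rps16 87.9%, in Rpsa 74.4% and in Rpl12 69.2%. With protein-coding transcripts alone, the change of Rps20 was -0.41 in XX (limma adjusted p = 0.111) and -0.11 in XY cells (adjusted p = 0.641), and that of Rpl12 in XX cells was -0.14 (adjusted p = 0.704). So the calls of Rps20 in XX and XY cells and of Rpl12 in XX cells were not made on the coding transcripts alone, while Rpl10l and Rpl39l kept theirs in all 3 transitions under every alternative run.

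Other genes of the translation machinery are given beside the share of all tested genes, and no test set them against the members. Of all genes, 12.2%, 9.36% and 21.5% fell in XX, XY and Tet3-/- cells on TPM and 27%, 26.4% and 27.9% on scaled values, while 19.2%, 41.1% and 13.6% rose on TPM and 23%, 24.5% and 23.7% on scaled values. Of the 10 snoRNA host genes listed, whose spliced transcripts also begin with an oligopyrimidine tract, 9 were tested: 7 fell in XX, 3 in XY and 7 in Tet3-/- cells on TPM, and 9, 9 and 6 on scaled values. Gas5 fell in XX (-0.98) and in Tet3-/- cells (-0.66; limma adjusted p = 0.000653 and 0.00779), while in XY cells it was at -0.26 (adjusted p = 0.276). Of 32 initiation factors, 0 rose and 2 fell in XX, 8 rose and 1 fell in XY, and 0 rose and 2 fell in Tet3-/- cells on TPM; on scaled values the numbers were 0 and 5, 1 and 6, and 4 and 2. Eif2s2, which encodes the beta subunit of eIF2, fell in all 3 (-1.79, -0.80 and -1.75). Of 38 ribosome biogenesis factors, 1, 1 and 3 fell on TPM and 12, 9 and 8 on scaled values in XX, XY and Tet3-/- cells, and at most 2 rose. Of the 78 mitochondrial ribosomal proteins, 0, 1 and 11 fell on TPM and 34, 22 and 21 on scaled values, while 1, 13 and 0 rose on TPM and 1, 1 and 3 on scaled values.

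Some of the members' promoters held short sequences that the choice by name did not use, and no test was made on them. In the RefSeq promoter table (GRCm38.p6), 66 of the 86 members had an entry among 27025 genes. The pentamer CTTTC, part of the oligopyrimidine start, lay on the coding strand between 20 bases before and 30 after the start in 23 of 66 (34.8%), against 7.66% of all entries. CCGGAAG, on either strand between 100 bases before and 50 after the start, was in 20 of 66 (30.3%) against 7.52%. The longer pyrimidine run CTTTTC, searched in the same place as the pentamer, was in 5 (7.58%) against 2.01%. The E-box CACGTG, searched on either strand between 100 bases before and 50 after the start, was in 2 (3.03%) against 5.00%. TATAAA, on the coding strand within 50 bases before the start, was in 1 (Rpl22l1), against 3.15%. Rpl39l holds both CTTTC and CCGGAAG, and Rpl10l neither. The windows overlap, and a match describes these letters only.

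By expression over the 19 libraries on scaled values, the genes most like a member were mostly other members. Over the 5 genes with the highest Spearman correlation to each of the 85 tested members, 262 of 425 (61.6%) were members, against 0.57% of tested genes; this is a description, since the libraries and the scaling are shared. Genes outside the set that came up for at least 2 members included the Rpl12 copy Gm10275 (7 members), the Rpl5 copy Gm15500 (5), Cox6b1 and Cox8a of cytochrome c oxidase (4 each), Pfdn1 (3) and Rack1, a protein of the small subunit whose symbol falls outside the rule (2). Plpp1 was among the 5 likest genes of both Rpl10l and Rpl39l.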

How the data were processed

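TPM values per transcript were deposited by the authors in 1 table of 140948 transcripts and 19 libraries; each library sums to the same total, so the files carry no depth and precision rests on the spread between libraries. Salmon 1.1.0, Trimmomatic 0.35, FastQC 0.11.7 and GRCm38 are named in the submitters' processing notes, with no role or order. Per the labels' protocols, libraries were stranded total RNA depleted of ribosomal RNA, from RNA with an integrity number of at least 9.

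TPM was summed per gene with GENCODE M21; 139357 transcripts matched with their version, 495 without it, and 1096 (0.0454% to 0.215% of TPM) were left out. One limma 3.58.1 model (R 4.3.3; eBayes with trend) covered the 6 groups on log2(TPM + 1), with Benjamini-Hochberg adjustment over 14972 genes; scaled values were divided by median-of-ratios factors from the 18385 genes above 0 in all libraries. Python 3.11.15, pandas 2.3.3, SciPy 1.17.1 and BLAST 2.17.0 were used. Tested on simulated data (14972 genes, 200 of them changed), the fit recovered 92.5% (XX transition), 94.5% (XX against XY mESC) and 91.5% (Tet3-/- against XX EpiLC) of genes changed by 2 log2 units, and 40.5%, 36.5% and 26% of those changed by 1.

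Named members are, per comparison, up to 6 highest and 6 lowest among those called in the same direction on both scales, the X-linked members, the paralogues with their partners, and the 5 highest and lowest by mean TPM; others are named where the text says so. The members and lists were chosen with earlier results of these data known. Columns were matched to libraries by header names equal to the labels' descriptions. Alternatives covered scaling, filters, pseudocount, variance prior, transcript types, near-identical copies, a replicate block and each library left out; those on copies by sequence were chosen after seeing the data.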

Additional observations from a re-analysis of the deposited data

Results flagged for a closer look

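The transitions of XX and XY cells differed, by a test of the difference itself, for 3 members. Rpl39l fell less in XX cells, with a difference of 1.65 on TPM (limma adjusted p = 0.00293) and 1.59 on scaled values (adjusted p = 0.000906). Rpl10l differed by 0.98 on scaled values (SE 0.27, adjusted p = 0.0143). Rpl12 differed by -1.004 on TPM (SE 0.29, adjusted p = 0.0222), and most of its TPM lies in a copy. In the group of 4 libraries, 87 values were examined for a library far from the others, and 0 were found; chance would give about 1 in 20.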

How the results depend on the processing

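With median-of-ratios scaling, XX transition calls were 11 lower; XY 0 higher and 46 lower; Tet3-/- 3 lower; Tet3-/- against XX 1 lower in mESC and 1 higher in EpiLC; XX against XY 5 higher and 2 lower in mESC, 9 higher and 0 lower in EpiLC; and XX minus XY transition 2 higher and 0 lower. Rescaled over nuclear protein-coding genes, XX transition calls were 2 higher, XY 1 higher and 26 lower, Tet3-/- against XX 1 higher in mESC and 1 in EpiLC, XX against XY 5 higher and 3 lower in mESC and 14 higher and 2 lower in EpiLC, and XX minus XY transition 4 higher and 0 lower. With only the groups compared, the XX transition had 2 lower, XX against XY 0 higher and 0 lower in mESC and 3 higher and 72 lower in EpiLC. A TPM minimum of 5 left 1 higher in XX against XY mESC, and no filter 0 higher in EpiLC. With near-identical copies, 0 were lower in XX minus XY and, on scaled values, in Tet3-/- against XX mESC. The causes were not tested. Here and below, counts under a changed setting or without a library stand without the share of all genes in the same fit. They show how the calls depend on the processing and are no result about the members. In the main fit on TPM, 21 members (24.7%) and 42% of all genes were lower in XX than in XY EpiLC. The share of all genes in the fit with only the groups compared is not given, so the 72 cannot be set beside the 42%.

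The labels do not say that a shared number marks a shared culture or clone, and whether it does so for the Tet3-/- numbers was not settled: the correlation of same-numbered libraries was 0.0396, -0.0526 and 0.0612 in XX, 0.209, -0.0279 and 0.275 in XY, and 0.223, 0.226 and -0.0887 in Tet3-/- cells, and not every library was most like its own number. With a replicate block by genotype, the XY transition had 2 higher and 3 lower, Tet3-/- 8 lower and XX minus XY 0 lower; with the replicate block, XX against XY EpiLC had 0 higher and, on scaled values, Tet3-/- against XX mESC 0 lower.

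On scaled values most members changed sign in 2 comparisons: 58 were above 0 on TPM and 2 on scaled values in the XY transition (Rpl5, Rpl29, Rpl4 and Rpl9 among those that turned), and 79 were below 0 on TPM and 79 above 0 on scaled values in XX against XY EpiLC. Of the other members followed under every alternative, those called on either scale that turned were Rpl13 (-0.70) and Rps19bp1 (-0.57) in the XY transition, and Rpl12 (0.12), Rpl36a (0.017), Rplp1 (0.72), Rps27l (0.75) and Rps4x (0.75) in XX against XY EpiLC, where rescaling gave Rplp1 0.58, Rps27l 0.60 and Rps4x 0.61. Of 661 other values of named members on TPM, 558 kept direction and call.

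The summed share over nuclear protein-coding TPM was 28.7%, 27.9% and 26.9% in XX, XY and Tet3-/- mESC and 26.5%, 22.0% and 23.8% in the EpiLC. With copies it was 11.2% in XY and 10.3% in Tet3-/- mESC and 9.05%, 11.6% and 8.51% in XX, XY and Tet3-/- EpiLC; with protein-coding transcripts alone 7.29%, 9.22% and 6.73%, and with named pseudogenes 8.39%, 10.7% and 7.84% in the EpiLC.

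Leaving out 1 library gave these ranges on TPM: XX transition 0 to 13 higher and 5 to 10 lower; XY 0 to 5 and 3 to 5; Tet3-/- 10 to 15 lower; Tet3-/- against XX mESC 0 to 6 higher; XX against XY mESC 1 to 4 and 2 to 43; EpiLC 0 higher and 4 to 14 lower; XX minus XY 1 to 2 and 0 to 2. On scaled values they were XX 5 to 8 lower; XY 18 to 62 lower; Tet3-/- 0 to 1 and 3 to 6; Tet3-/- against XX mESC 0 to 1 and 0 to 1, EpiLC 0 to 2 higher; XX against XY mESC 1 to 5 and 0 to 4, EpiLC 4 to 9 higher; Tet3-/- minus XX 0 to 1 higher; XX minus XY 2 to 7 and 0 to 1.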

Other observations

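Of the genes that govern the ribosomal protein genes or sense their products, Myc and Mdm2 are given here, on TPM only. Myc, a transcription factor that activates ribosome synthesis, rose in all 3 transitions: by 1.54 in XX (limma adjusted p = 0.00517), 1.37 in XY (adjusted p = 0.00747) and 1.86 in Tet3-/- cells (adjusted p = 0.000535). Mdm2, to which free Rpl5 and Rpl11 bind, rose by 0.97 in XX (adjusted p = 0.014) and 0.79 in XY cells (adjusted p = 0.0287), and was at 0.55 in Tet3-/- cells (adjusted p = 0.127). On TPM, 19.2%, 41.1% and 13.6% of all tested genes rose in XX, XY and Tet3-/- cells. The median gene was at 0.14, 0.54 and -0.13 in the same order, and at -0.05, -0.04 and -0.03 on scaled values. Whether Myc and Mdm2 also rose on scaled values is not shown here. No count is given of the other genes of this kind. The values of Myc and Mdm2 stand beside those of the members, and no relation between them was tested.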
